A study of Mus musculus with 2 samples.

Results

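Toll-like receptors were examined with the co-receptor Cd14 and the adaptor Myd88 in EYFP+ cells sorted from the adult mouse dentate gyrus (DG). The 10 members were taken by gene symbol from the 32285 genes of the tables, and all 10 were found. They comprise 8 receptors (Tlr1, Tlr2, Tlr3, Tlr4, Tlr6, Tlr7, Tlr9 and Tlr13), Cd14 and Myd88. The study compared 1 WT with 1 iKD library, and each was made from 5 pooled mice of both sexes. WT mice were NestinCreERT2+/-; Vegfa wt/wt; ROSA-LoxSTOPLox-EYFP+/+, and iKD littermates carried Vegfa lox/lox in place of the wild-type alleles. All mice, 7 to 10 wk old at the start, received tamoxifen (TAM), and DGs were dissected 21 d later. TAM switches on a Cre that the Nestin promoter drives, so that EYFP and, in iKD mice, Vegfa loss mark cells in which this promoter was active, and the controls carry the same Cre, reporter and TAM. Because each genotype has 1 library, no test between genotypes was possible, and every interval below covers counting error only.

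Toll-like receptors are innate immune sensors of microbial molecules and of molecules released by damaged cells. Tlr1, Tlr2, Tlr4 and Tlr6 act at the cell surface on lipopeptides and lipopolysaccharide, whereas Tlr3, Tlr7, Tlr9 and Tlr13 act in endosomes on nucleic acids. All of them except Tlr3 signal through Myd88 to NF-kB and interferon regulatory factors, and in the brain they are best known from microglia, the resident macrophages.

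The cluster names qNSC1, qNSC2, aNSC, NSPCs, IPC1, IPC2, eNB, NB, IN1, IN2, Astrocyte and Undefined are those of the deposited tables, and they are used here as names only. In the 8 clusters from qNSC1 to NB, the 10 microglial marker genes (Cx3cr1, P2ry12, Tmem119, C1qa and others) were found in a median of 99.98% of cells, and each of the 10 was found in more than 50% of them. The 9 neural stem cell markers were found in a median of 0.36% of the same cells. The defining markers thus went against the neural names of these clusters. Of 6 border macrophage genes, Lyve1 was at 0, and the summed level of the 6 was 0.0690 counts per 10,000 UMIs in WT and 0.0704 in iKD, mostly Mrc1. Of 6 monocyte and neutrophil genes, S100a8, S100a9 and Retnlg were at 0, and the summed level of 0.0438 in WT and 0.0332 in iKD came mostly from Ccr2 and Plac8. By cluster, these sums reached 0.203 in qNSC2 for the border macrophage genes and 0.204 in aNSC for the monocyte and neutrophil genes, against 401 for the microglial markers. In the cluster called Astrocyte, all 8 choroid plexus markers were found in more than 50% of cells.

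The WT library held 5543 cells with a median of 8051 UMIs (unique molecular identifiers, each marking 1 captured mRNA molecule), and the iKD library held 5261 cells with a median of 7080. The libraries shared 9 cell barcodes. Vegfa itself was found as 74 UMIs in WT and 36 in iKD over the 6 clusters that the study compared, qNSC1 to IPC2, with a log2 ratio of -0.46 whose interval, -1.07 to 0.14, includes 0. The summed level of the choroid plexus markers was 0.153 counts per 10,000 UMIs in WT and 10.7 in iKD over the 8 clusters, and that of 6 glucocorticoid-response genes was 19.2 and 14.8. Their part in the results below was tested only where stated.

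Tlr1 and Tlr6 are neighbours on chromosome 5 (64924679-64933563 and 64952031-64960097, minus strand, GRCm38), and their mRNAs share a long identical run. The longest was 229 bases, lies in the coding part of the last exon of both genes, at chr5:64925537-64925765 and chr5:64953828-64954056, and is printed because reads inside it cannot be assigned to 1 of the 2 genes. It ends 858 bases before the end of the Tlr1 transcript and 1797 bases before the end of the Tlr6 transcript, while the libraries count molecules from their 3′ ends.

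Tlr1 and Tlr6, shared run (5′ to 3′): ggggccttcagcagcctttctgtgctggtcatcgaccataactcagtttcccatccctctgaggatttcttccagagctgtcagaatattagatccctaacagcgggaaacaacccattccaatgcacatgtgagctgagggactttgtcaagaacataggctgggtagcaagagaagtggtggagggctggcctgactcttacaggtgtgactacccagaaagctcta

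The levels of Tlr1 and Tlr6 therefore carry an uncertainty that the counting intervals do not hold. No other pair of the members whose transcripts were compared shared a run of 20 bases or more. The members lie on 6 further chromosomes. Tlr2 is on chromosome 3 (83836272-83841767), Tlr3 on chromosome 8 (45395665-45411080), Tlr4 on chromosome 4 (66827584-66930284), Tlr9 and Myd88 on chromosome 9 (106222598-106226883 and 119335934-119341411) and Cd14 on chromosome 18 (36725067-36726798). Tlr7 (167304929-167330558) and Tlr13 (106143204-106160493) are on chromosome X.

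Cd14 and Tlr7 were each found in most cells of the 6 clusters. Cd14, which hands lipopolysaccharide to Tlr4, had a level of 3.27 counts per 10,000 UMIs in WT and 3.22 in iKD, and a UMI in 87.4% of WT and 83.8% of iKD cells. Tlr7, an endosomal sensor of single-stranded RNA, had a level of 2.79 in WT and 2.70 in iKD and was found in 80.5% and 76.1% of cells. Both genes were thus found in somewhat fewer iKD cells, in the library with the lower depth. After each cell was thinned to 4500 UMIs, the shares were 72.6% and 71.4% for Cd14 and 66.2% and 63.9% for Tlr7.

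The next 4 members were found in fewer cells. Tlr4, the lipopolysaccharide receptor, was found in 49.5% of WT and 43.0% of iKD cells, Tlr13, a sensor of bacterial ribosomal RNA, in 44.8% and 42.1%, Tlr3, the sensor of double-stranded RNA, in 41.2% and 36.5%, and Tlr2, a lipopeptide receptor, in 27.2% and 23.4%. Myd88 was found in 19.1% and 17.8% of cells, and Tlr1 and Tlr6, which pair with Tlr2, in 12.4% and 11.4% and in 12.8% and 11.8%. Tlr9, the sensor of unmethylated CpG DNA, was found in 2.75% and 2.52%. These shares depend on depth and on how well each 3′ end was captured, so they do not rank the amounts of mRNA between genes. In thinned cells of the 8 clusters, the median cell had a UMI of 2 of the 8 receptors in both libraries. No receptor was found in 8.66% of WT and 9.04% of iKD cells, and 3 or more were found in 26.8% and 25.7%.

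In the Astrocyte cluster, which holds 130 iKD and 4 WT cells, the same RNA was scarce. In its iKD cells, with a median of 7902 UMIs, Cd14 was found in 23.1%, Tlr7 in 19.2% and Tlr4 in 14.6% of cells, and the microglial markers in both libraries' cells in a median of 42.9%. No member had a UMI in the 4 WT cells, which is too few to set a limit. All 9 members other than Tlr9 were found in larger shares of cells in the 8 clusters than in these iKD cells. No estimate of free RNA or mixed droplets was made, and the source of the members' RNA in the Astrocyte cluster was not tested. Tlr9 was found in 0 of the 130 iKD cells, which allows a share of up to 2.31%, taken as 3 counts of the total and close to its share in the 8 clusters.

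IN2, with medians of 3309 UMIs in WT and 2775 in iKD, differed from the 8 clusters in the balance of members. Its Cd14 level was 0.813 in WT and 0.456 in iKD, against 3.13 and 3.11 in the 8 clusters, whereas its Tlr7 level was 4.08 and 3.10, against 2.68 and 2.72. The level of Tlr2 was 0.104 and 0.170. In the 73 IN2 cells deep enough for thinning, Cd14 was found in 24.7% (15.3% to 36.1%) and Tlr7 in 50.7% (38.7% to 62.6%), against 70.6% and 64.4% in the 8 clusters. By library, Tlr7 was found in 59.3% (45% to 72.4%) of the 54 WT and 26.3% (9.15% to 51.2%) of the 19 iKD cells. These intervals overlap, and no receptor at all was found in 16.7% of these WT and 63.2% of these iKD cells. Cd14 was found in 24.1% and 26.3%. Cd14 was thus low in both libraries. For Tlr7, the level was above that of the 8 clusters and the thinned share below it, and the share covers only 73 of the 288 IN2 cells. IN2 cells held less of the microglial markers, with a summed level of 135 counts per 10,000 against 401 in the 8 clusters, and more of others. The 5 neuroblast genes summed to 0.0954 in WT and 4.30 in iKD, against 0.00805 in the 8 clusters, and the 5 granule neuron genes to 2.06 and 4.26, against 0.254. Their part in the IN2 values was not tested.

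**Figure D1:**
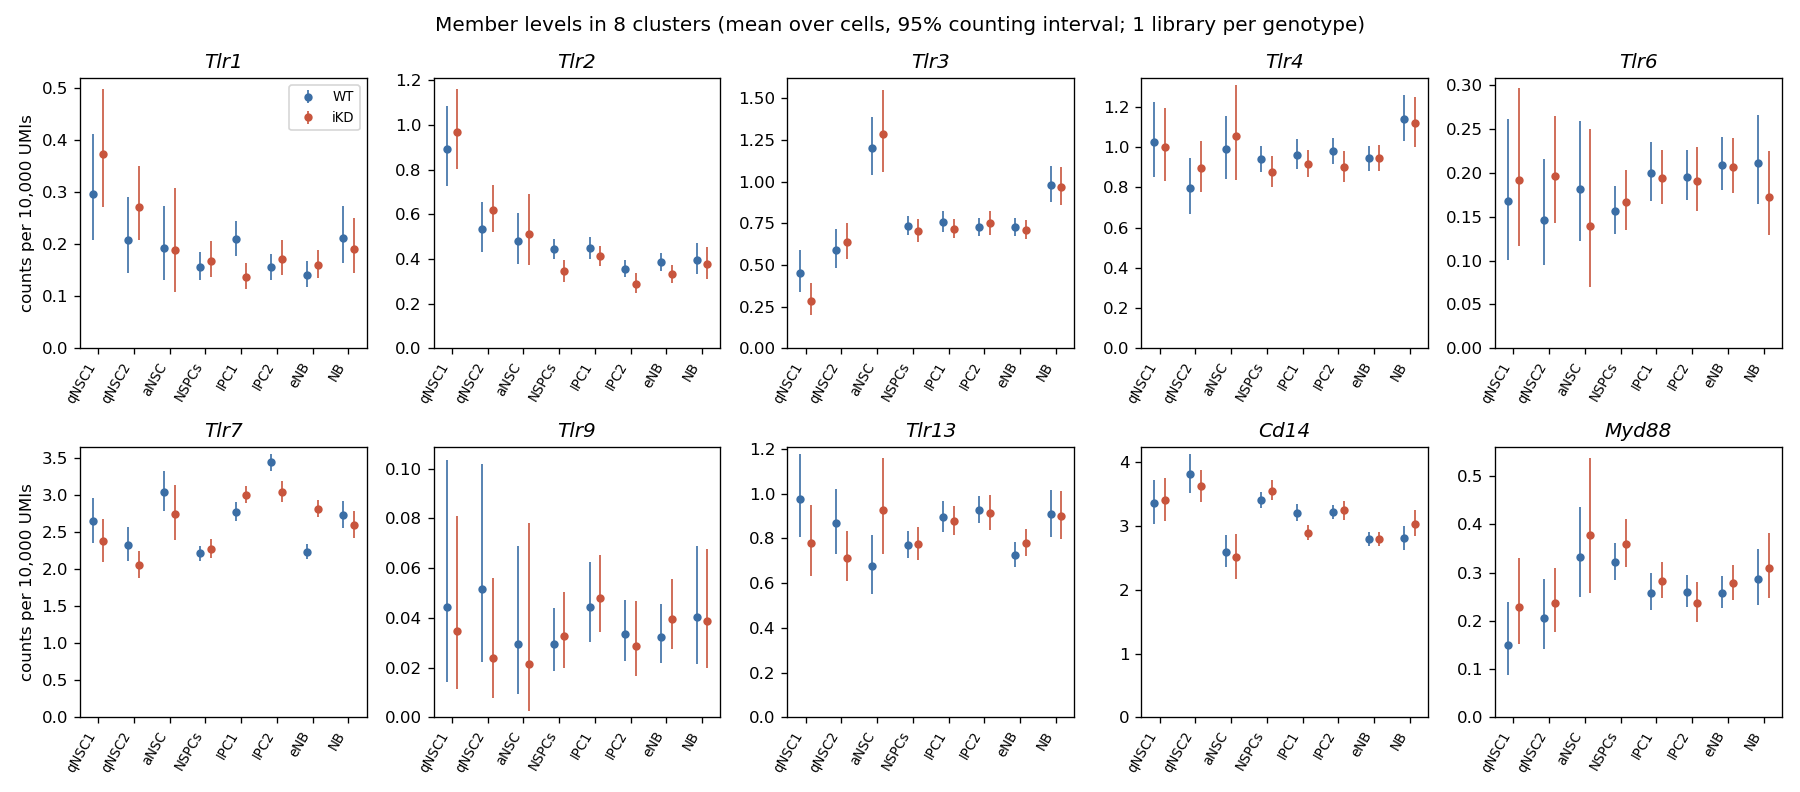
Level of each member (y axis, mean counts per 10,000 UMIs of a cell) in the 8 clusters (x axis) in WT (blue) and iKD (red) cells, with bars for the 95% counting interval. Tlr1 and Tlr2 were highest in qNSC1, where Tlr3 and Myd88 were lowest, and the libraries mostly lay close together.

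The members differed in how they were spread over the clusters. Of the 9 members with a level of at least 0.05, 5 had at least a 1.5-fold range between their highest and lowest cluster, over WT and iKD cells pooled. The same range was reached by 59.4% of the 10821 genes at this level, so such a range is common here. The clusters were made from these cells and genes, and the ranges are descriptions. The range was widest for Tlr3, followed by Tlr2, Tlr1, Myd88 and Tlr7. Tlr7 reached it narrowly, with 1.52-fold over both libraries and 1.48-fold in each library alone, and fell short of it in thinned cells and with CPM of summed UMIs.

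Tlr2 was highest in qNSC1, with 0.893 counts per 10,000 in WT and 0.970 in iKD, and lowest in IPC2, with 0.355 and 0.289. The fold between these clusters was 2.84 over both libraries, 2.51 in WT and 3.35 in iKD. The order over both libraries was qNSC1, qNSC2, aNSC, IPC1, NSPCs, NB, eNB and IPC2. The steps from qNSC1 to qNSC2 (0.535 in WT and 0.620 in iKD) were larger than their counting intervals, whereas the intervals of aNSC, IPC1, NSPCs and NB overlapped.

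Tlr1 followed Tlr2. It was highest in qNSC1 in both libraries, with 0.296 in WT and 0.372 in iKD. Next was qNSC2 in iKD, with 0.272, and NB in WT, with 0.212, where IPC1 and qNSC2 were close, with 0.209 and 0.208. Its lowest value was in eNB in WT (0.142) and in IPC1 in iKD (0.137), and the fold from highest to lowest was 2.23. Over the 16 values of 8 clusters and 2 libraries, the log2 levels of Tlr1 and Tlr2 had a Pearson r of 0.85, and no other pair of members had a higher one. Tlr6, the other partner of Tlr2, did not show this. It ranged only 1.30-fold, from 0.160 in NSPCs to 0.208 in eNB, and within each library its intervals overlapped between all 8 clusters.

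Tlr3 went the other way. It was highest in aNSC, with 1.2 in WT and 1.28 in iKD, and lowest in qNSC1, with 0.451 and 0.283, a 3.42-fold range. NB was next to aNSC, with 0.980 and 0.969, and the 4 clusters IPC2, IPC1, NSPCs and eNB, at 0.705 to 0.759, differed by less than their intervals. Myd88 was likewise lowest in qNSC1 (0.149 in WT and 0.229 in iKD) and highest in aNSC (0.333 and 0.378), a 1.81-fold range. The Pearson r of Tlr3 with Myd88 over the 16 values was 0.69, and that of Tlr2 with Tlr3 was -0.61. These points share libraries and depth and are not independent.

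Tlr7 had its highest level in IPC2, with 3.44 in WT and 3.05 in iKD, and its lowest in qNSC2 in iKD (2.06) and NSPCs in WT (2.22), a 1.52-fold range over both libraries. Cd14 was highest in qNSC2 (3.81 and 3.61) and lowest in aNSC (2.59 and 2.50), 1.44-fold. Tlr4 ranged 1.32-fold and was highest in NB in both libraries (1.14 and 1.12), and Tlr13 ranged 1.22-fold. For Tlr9 the range was 1.74-fold, on levels of 0.0268 to 0.0465, and its interval included no difference.

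The genes most like 8 of the members over the 16 values were named by rank of Pearson r among 10113 genes. For Tlr2 they were Actr3 (r = 0.94), Lpl and Gpr84. For Tlr1 they were Fgr (0.90), Lpl and Pum3, so that Lpl, lipoprotein lipase, was on both lists. Tlr1 and Tlr2 had an r of 0.85 with each other, so a shared gene is not a separate result. For Tlr3 they were Map2k1 (0.95), Ankle2 and Casp2, for Myd88 Orai1 (0.91), Mgat1 and Mag, and for Tlr4 Prpf3 (0.90), Slc7a7 and Gpat4. For Tlr7 they were Dhx9 (0.80), Jade2 and Slc2a3, for Tlr13 Rnf123 (0.79), Gorab and Rbm19, and for Tlr6 1700037C18Rik (0.87), BC024063 and Herc3. Each is the best of 10113 genes over 16 values that are not independent. How high the best r would be among unrelated genes was not tested, so these names show no link, least of all the lower values of Tlr7 and Tlr13.

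Sequence before the start site was read from RefSeq windows on GRCm38.p6, which exist here for 7 of the 10 members, in 9 windows. In each, the 250 bases before the start were searched on both strands for GAGGAAG (the core that PU.1 binds), GAAANNGAA (interferon regulatory factors), GGGANTTCC (NF-kB) and TGANTCA (AP-1). They are printed for Tlr1 and Tlr2, which were both highest in qNSC1, and for Myd88, which ran against them, up to the first annotated exon, with matches in capitals.

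Tlr1 (chr5:64933564-64933808, minus strand): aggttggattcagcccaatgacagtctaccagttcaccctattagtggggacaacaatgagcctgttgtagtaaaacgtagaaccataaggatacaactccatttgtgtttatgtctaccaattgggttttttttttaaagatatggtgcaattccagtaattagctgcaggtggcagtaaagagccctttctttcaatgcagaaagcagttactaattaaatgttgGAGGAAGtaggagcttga

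Tlr2 (chr3:83841768-83841858, minus strand): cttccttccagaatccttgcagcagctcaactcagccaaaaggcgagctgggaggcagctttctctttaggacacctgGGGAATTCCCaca

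Myd88 (chr9:119340042-119340268, minus strand): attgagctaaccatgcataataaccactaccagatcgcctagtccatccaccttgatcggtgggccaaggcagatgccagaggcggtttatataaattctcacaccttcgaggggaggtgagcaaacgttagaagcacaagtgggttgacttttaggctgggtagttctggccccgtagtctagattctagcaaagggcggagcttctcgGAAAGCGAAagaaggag

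The Tlr2 sequence holds GGGANTTCC on both strands in 2 overlapping matches, a motif found in 1.43% of the 32851 windows. Tlr1 holds 1 GAGGAAG, as do 10.6% of windows, and Myd88 holds 1 GAAANNGAA, as do 7.13%. Of the others, the windows of Tlr9 and Tlr13 hold GAGGAAG, that of Tlr9 also holds TGANTCA (6.75% of windows), and a downstream start of Tlr6 has 2 matches of GAAANNGAA. The window of Tlr3, the member with the widest range, holds none of the 4. A match is a run of letters and was not tied to any factor here.

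Between genotypes, the members lay close together. Over the 6 clusters, 0 of the 9 members with a level of at least 0.05 were past the fold, that is at least 25% higher in 1 genotype than in the other with the counting interval off 0, as against 2.96% of 10172 genes. The 10 log2 ratios of iKD over WT ran from -0.09 to 0.06, with a median of -0.02 against 0.01 for all genes tested. Tlr2 was at 0.440 counts per 10,000 in WT and 0.414 in iKD, so that its ratio was -0.09 (-0.21 to 0.03). Myd88 was at 0.276 and 0.289, with a ratio of 0.06.

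The ratios of the remaining members were as small. Tlr4 was at 0.955 in WT and 0.908 in iKD, Tlr3 at 0.745 and 0.713, Tlr13 at 0.856 and 0.840, Tlr6 at 0.179 and 0.184, and Tlr1 at 0.178 in both. The log2 ratio of Cd14 was -0.02. The only interval off 0 was that of Tlr7, with a log2 ratio of -0.05 (-0.10 to -0.0025). Over the 8 clusters its ratio was 0.02, and as the mean of the ratios in female and in male cells it was 0.00. The interval of Tlr2 came off 0 over the 8 clusters, with -0.12 (-0.22 to -0.01), as the mean of both sexes, with -0.14 (-0.28 to -0.0087), and in thinned cells, with -0.17 (-0.33 to -0.0056), none of them past the fold. Counts of Tlr9 were 0.0358 and 0.0359 per 10,000, below the level minimum. The intervals of the 9 members above the minimum lay within this fold in either direction, and differences between the mice of a pool could not be measured.

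**Figure D2:**
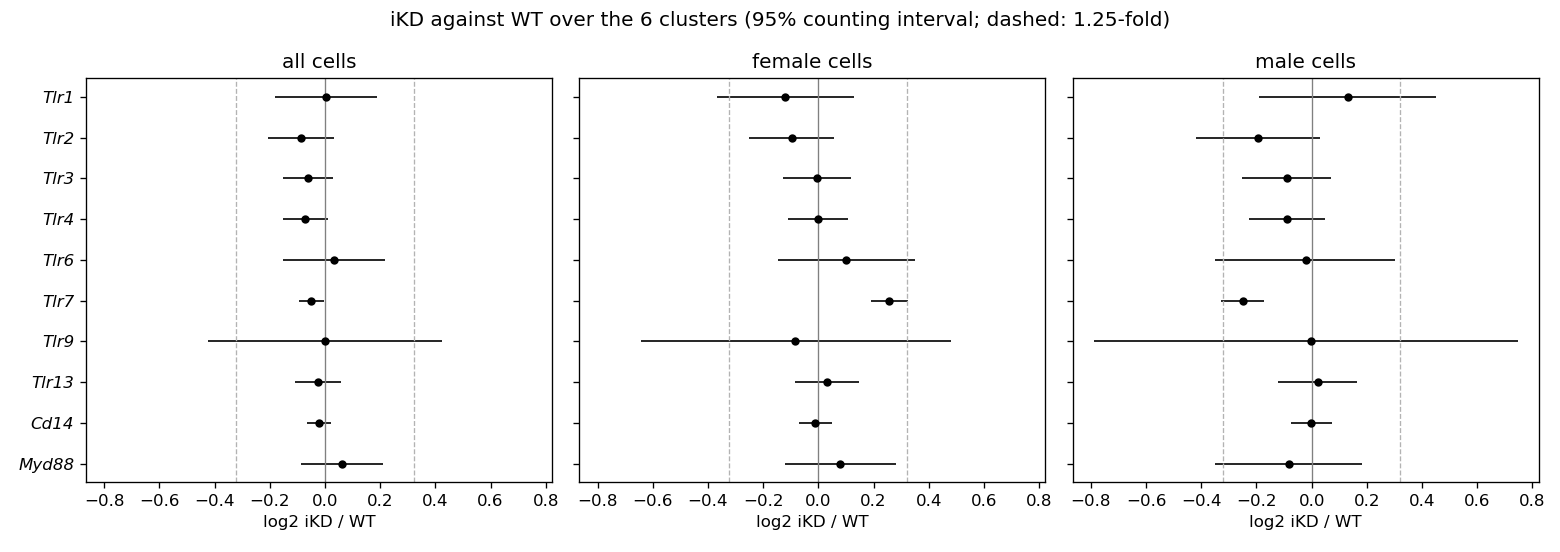
Log2 ratio of iKD over WT (x axis) for the 10 members (y axis) over the 6 clusters, in all cells, in female cells and in male cells, with 95% counting intervals and dashed lines at the 25% difference. In all cells the ratios lie between -0.09 and 0.06, and in female and male cells Tlr7 lies on opposite sides of 0.

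Within single clusters, 5 of 73 ratios of members at the level minimum in 8 clusters were past the fold. Of all genes, 6.97% were past it in qNSC1, 6.12% in qNSC2, 7.49% in aNSC, 4.46% in NSPCs, 4.91% in IPC1, 5.92% in IPC2, 4.37% in eNB and 6.21% in NB, so that the members were near the background. Tlr9 reached the minimum only in qNSC2. Tlr1 was lower in iKD in IPC1 (0.209 in WT and 0.137 in iKD), Tlr2 in NSPCs (0.443 and 0.345) and Tlr3 in qNSC1 (0.451 and 0.283). Tlr13 was higher in iKD in aNSC (0.675 and 0.927), and Tlr7 in eNB (2.24 and 2.82). The counts behind them differ much. The Tlr3 value rests on 54 and 36 UMIs, and the Tlr7 value on 2105 and 2435. No member was past the fold in more than 1 cluster, and of the 80 ratios of all 10 members 42 were below 0 and 38 above it.

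Each library pooled mice of both sexes, and cells were scored as female by an Xist UMI and as male by a UMI of Ddx3y, Eif2s3y, Uty or Kdm5d. Over the 6 clusters, 1765 cells scored female and 1686 male in WT, and 2230 and 918 in iKD. The number of female and male mice in each pool was not given in the sources used here, so a female and a male group stand for at most a few animals each. In cells of 1 sex, 0 of the 9 members were past the fold between genotypes, where 4.64% of all genes were in female and 6.63% in male cells.

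Tlr7 had a level of 2.28 (2.20 to 2.36) in WT female cells and 3.27 (3.18 to 3.37) in WT male cells. In iKD it was at 2.73 (2.64 to 2.81) in female cells and 2.75 (2.62 to 2.88) in male cells. The WT library thus held the lowest and the highest of the 4 values, and the iKD values were equal within counting error. The log2 ratio of male over female was 0.52 (0.45 to 0.59) in WT and 0.01 (-0.07 to 0.09) in iKD. Of the 10178 genes compared between female and male WT cells, 6.88% were past the fold, and Tlr7 was the only member among them. As iKD over WT, the log2 ratio of Tlr7 was 0.26 (0.19 to 0.32) in female cells and -0.25 (-0.33 to -0.17) in male cells, and neither was past the fold. Without IPC2, the male value was -0.37 (-0.52 to -0.22), which is past it, and the female value was 0.23.

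The pattern of Tlr7 was seen in most clusters. In WT, male cells were higher than female cells in 7 of 8 clusters, in 6 of them with the interval off 0. In NSPCs, for example, the level was 1.95 in 829 WT female cells and 2.87 in 267 WT male cells, and 2.34 and 2.24 in iKD. In iKD, male cells were higher in 1 of 8 clusters, NB, where both genotypes had the male value on top (2.46 and 3.26 in WT, 2.51 and 3.09 in iKD). Female cells were higher in iKD than in WT in 8 of 8 clusters, in 3 with the interval off 0. Male cells were lower in iKD in 8 of 8, in 4 with the interval off 0. Some of these ratios rest on few cells, as in female cells of IPC2 (0.0023, -0.61 to 0.68) and in male cells of aNSC (-0.28, -1.20 to 0.52), with 6 in iKD. The clusters also share libraries and mice and are not independent. IPC2, with the highest Tlr7 of the 8 clusters, held 1067 male and 9 female cells in WT and 616 and 116 in iKD. Without IPC2, the male over female ratio was 0.40 (0.31 to 0.49) in WT and -0.21 (-0.34 to -0.07) in iKD. Within IPC2, it was -0.11 (-0.69 to 0.55) in WT and -0.32 (-0.50 to -0.14) in iKD. Male iKD cells were thus lower both within IPC2 and over the rest of the 6 clusters, which the pooled iKD ratio does not show.

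**Figure D3:**
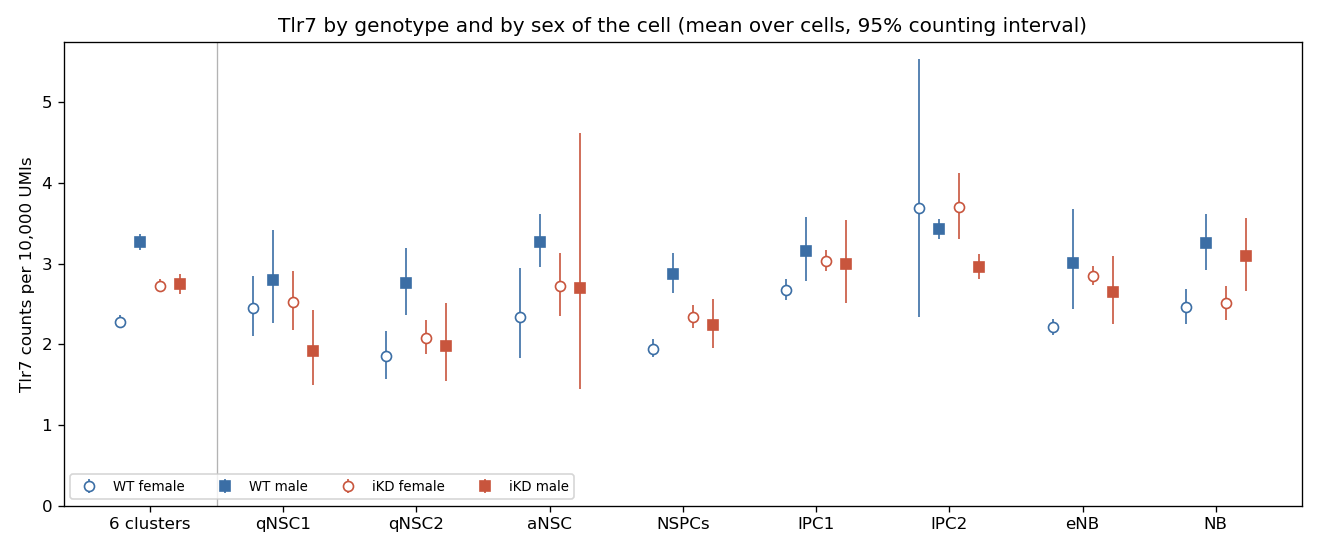
Tlr7 level (y axis, mean counts per 10,000 UMIs) in female cells (open circles) and male cells (filled squares) of WT (blue) and iKD (red), over the 6 clusters together and in each of the 8 clusters (x axis), with 95% counting intervals. WT male cells lie above WT female cells everywhere but in IPC2, while iKD male and female cells overlap in most clusters.

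Genes of the glucocorticoid response differed between the same 4 groups of cells. Fkbp5 was at 3.40 counts per 10,000 in WT female, 8.89 in WT male, 3.70 in iKD female and 2.69 in iKD male cells, Ddit4 at 0.797, 2.17, 0.841 and 0.594, and Tsc22d3 at 2.13, 4.39, 2.41 and 2.79. WT male cells were highest for all 3 genes, as for Tlr7. IPC2, with 1067 of the 1686 WT male and 9 of the 1765 WT female cells, was also the highest cluster of Fkbp5 and Ddit4, while that of Tsc22d3 was qNSC2. The part of IPC2 in the values of these 3 genes was not tested. In cells without an Fkbp5 UMI, Tlr7 was at 2.16 in 285 WT female and 2.93 in 23 WT male cells, a log2 ratio of 0.44 (-0.07 to 0.91), and at 2.51 and 2.46 in iKD. With 40 UMIs in the WT male cells, that interval includes 0.

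The other X-linked member, Tlr13, was slightly higher in male than in female cells in both libraries, at log2 ratios of 0.17 (0.05 to 0.29) in WT and 0.16 (0.02 to 0.30) in iKD. IPC2, nearly all male in WT, is its highest cluster with both libraries pooled, but qNSC1 was highest in WT and aNSC in iKD. Without IPC2 the ratios were 0.06 (-0.11 to 0.22) and 0.11 (-0.11 to 0.34), with intervals that include 0. Male cells were higher in Tlr13 in 6 of 8 clusters in each library, with the interval off 0 in 1 in WT and 0 in iKD. Over the 6 clusters, Cd14, which is not X-linked, was higher in male cells by 0.08 and 0.09. Tlr2 was lower in male cells of the pooled 6 clusters in both libraries, by -0.27 (-0.43 to -0.10) in WT and -0.36 (-0.58 to -0.15) in iKD, and in iKD this was past the fold, as was the ratio of 4.47% of genes. Its levels were 0.484 in WT female, 0.401 in WT male, 0.452 in iKD female and 0.350 in iKD male cells. IPC2, mostly male, is also the cluster with the lowest Tlr2, and without it the ratios were -0.02 (-0.24 to 0.20) in WT and -0.05 (-0.36 to 0.25) in iKD. Within clusters, Tlr2 was higher in male cells in 2 of 8 clusters in WT, with the interval off 0 in IPC1, and in 5 of 8 in iKD. In iKD the only interval off 0 was in NSPCs, where male cells were lower, with -0.69 (-1.42 to -0.03). The pooled difference was thus not seen throughout. Tlr1, Tlr3, Tlr4, Tlr6, Tlr9 and Myd88 had intervals that included 0 in both libraries.

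Pairs of members that work together, or that only share a compartment (Tlr7 with Tlr9 or Tlr13), were then counted in the same thinned cells, within clusters. Tlr1 and Tlr2 were found together in 82 WT cells, 1.29 times the number that the product of their shares gives, and in 54 iKD cells, 1.0 times that number. Without thinning the values were 1.11 and 1.02. For Tlr2 with Tlr6 the values were 0.96 in WT and 0.97 in iKD, for Tlr4 with Cd14 1.01 and 0.97, for Tlr2 with Cd14 1.03 and 1.04, and for Tlr7 with Tlr13 1.01 and 1.0. Tlr7 with Tlr9, which share the trafficking protein Unc93b1, were at 0.91 and 0.94 on 50 and 44 cells. Apart from Tlr1 with Tlr2 in WT, a cell with 1 gene of a pair was about as likely as other cells of its cluster to have a UMI of the other.

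The remaining Toll-like receptors were below every member other than Tlr9, and Tlr12 and Tlr5 were above Tlr9. Tlr12 was at 0.145 counts per 10,000 in WT and 0.130 in iKD and Tlr5, the flagellin receptor, at 0.0862 and 0.100, whereas Tlr11 was at 0.00247 and 0.00180. Tlr8, next to Tlr7 on chromosome X, had 0 UMIs in WT and 1 in iKD over the 6 clusters. Among the partners of the members, Ly86 and Cd180, which form a complex, were at 17.3 and 17.4 and at 2.20 and 2.38. Ly96, the MD-2 protein that binds lipopolysaccharide with Tlr4, was at 0.677 and 0.668. Unc93b1, which carries endosomal receptors from the endoplasmic reticulum, was at 10.2 and 10.1, and Lbp and Cd36 were near 0. Of the 6 of these 8 accessory genes with a level of at least 0.05, none was past the fold, as against 2.96% of all genes compared.

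Further down the pathway, none of 4 adaptors and 13 signalling kinases and ubiquitin ligases at this level was past the fold. Neither was any of 6 negative regulators and 2 interleukin 1 family receptors. Of the 10172 genes compared, 2.96% were past it, so that no call in lists this short is near the background. The largest ratios among the adaptors were those of Tirap (0.182 in WT and 0.214 in iKD) and Ticam1, through which Tlr3 signals (0.190 and 0.161). Of 5 transcription factors, Irf7 was past the fold. It was at 0.0971 in WT and 0.0625 in iKD, and its log2 ratio was -0.56 (-0.86 to -0.27). By sex, it was at 0.0315 in WT female, 0.154 in WT male, 0.0748 in iKD female and 0.0307 in iKD male cells. Irf7 was thus higher in iKD among female cells and lower among male cells. Its RNA lay mostly in aNSC, with 1.55 in the 197 WT cells and 1.35 in the 108 iKD cells of that cluster. This cluster made up 197 of 3752 WT and 108 of 3412 iKD cells of the 6 clusters. It held 38 female and 139 male cells in WT, and 96 and 6 in iKD. The part of these numbers in the pooled value was not tested.

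Of 8 target genes at this level, 1 was past the fold in each direction, where 2.96% of the 10172 genes compared were past it in either direction. The median log2 ratio of the 8 was -0.02. Nfkbia, the inhibitor of NF-kB that NF-kB itself induces, was at 3.92 counts per 10,000 in WT and 3.0 in iKD. Its log2 ratio was -0.39 (-0.43 to -0.34), and it was lower in iKD in each of the 8 clusters. Its levels were 3.37 in WT female, 4.39 in WT male, 3.21 in iKD female and 2.46 in iKD male cells. Tnfaip3, another inhibitor of the pathway, was at 0.984 and 1.17, and the cytokine Il1a at 0.832 and 1.01, neither past the fold. Cxcl10, a chemokine of the interferon response, was at 0.0321 in WT and 0.0527 in iKD, past the fold, but 1 iKD cell of aNSC held 47.1% of its UMIs. Without that cell its iKD level was 0.0121 and its log2 ratio -0.93 (-1.53 to -0.37), in the opposite direction. Il12b had 9 UMIs in WT and 104 in iKD, below the level minimum, and 1 cell held 91.2% of them.

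**Figure D4:**
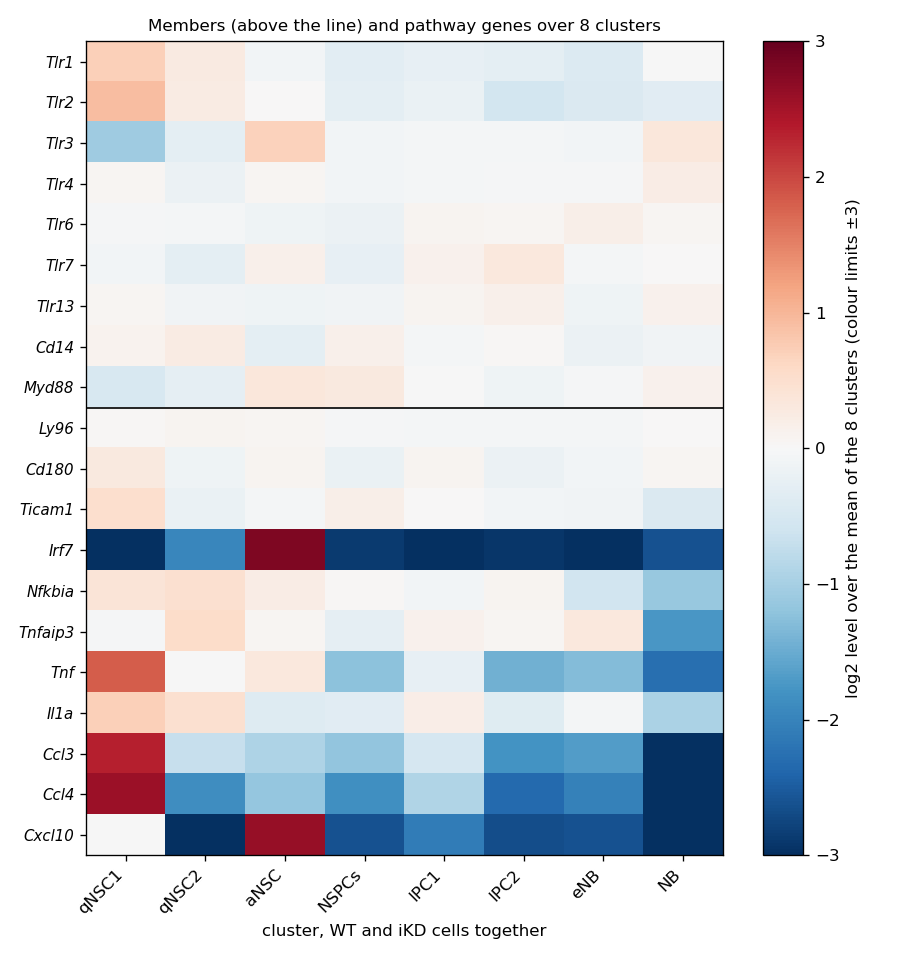
Level of 9 members (above the line) and of 11 pathway genes in the 8 clusters (x axis), as log2 of the level over the mean of the 8 clusters, WT and iKD cells together, with red for higher and blue for lower. Tnf, Il1a, Ccl3 and Ccl4 are highest in qNSC1 with Tlr1 and Tlr2, and Irf7 and Cxcl10 in aNSC with Tlr3 and Myd88.

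Target genes of the receptors also varied over the clusters. Of the 10 target genes at the level minimum in 1 cluster or more, 10 had a range of at least 1.5-fold, as did 59.4% of all genes, and 6 were highest in qNSC1, the highest cluster of 25.1% of all genes. With the cell holding the most UMIs of each gene left out, 9 genes were at the minimum, since Il12b fell below it, and 5 of them were highest in qNSC1. The chemokine Ccl4 was at 33.3 counts per 10,000 in WT and 21.0 in iKD in qNSC1, against 0.118 and 0.377 in NB, and Ccl3 was at 10.3 and 8.67 in qNSC1. Tnf was at 1.58 in WT and 1.19 in iKD there. qNSC1, where the receptors Tlr1 and Tlr2 were highest, was thus also the highest cluster of these cytokines, while Tlr3 and Myd88 were lowest in it. Of all 10821 genes at this level, 2715 were highest and 2725 lowest in qNSC1, so that neither place is particular to the members. In aNSC, where Tlr3 was highest, Cxcl10 was at 0.315 in WT and 1.33 in iKD, or 0.0506 in iKD without the cell named above. The summed level of 8 early-response genes that dissociation is known to raise ran from 29.4 in NB to 114 in eNB, and its part in these patterns was not tested.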

How the data were processed

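EYFP+ DG cells were profiled by 10x Genomics 3′ single-cell RNA sequencing in 1 WT and 1 iKD library. Per the labels, Cell Ranger 7.0.1 aligned and deduplicated the reads and Seurat 4.1.1 clustered the cells. The genome build of the alignment is not settled by the sources used here. The authors deposited natural log values for 32285 genes in 12 cluster tables, as the log of 1 plus counts per 10,000 UMIs of a cell. UMI counts were recovered from them, and 100% of values came out whole within 0.01 UMI. All cells were used, 0 columns were left unused, and no doublet caller was run. The study's methods give limits of 2000 and 5000 detected genes per cell, and 496 of 10804 deposited cells, 216 of them in IN2, lay under the lower and 0 over the upper limit. In the 8 clusters, 95 WT and 48 iKD cells held Xist together with Y-linked RNA, as doublets can.

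Levels are averages, over the cells of a group, of counts per 10,000 UMIs. Ratios were log2 with a pseudocount of 0.01. Intervals (95%) were exact Poisson for UMIs, exact binomial for shares of cells, and for ratios the exact binomial interval of the summed UMIs, set around the ratio. Genes were compared where the higher level was at least 0.05. Thinning drew 4500 UMIs per cell without replacement and left out shallower cells, so that 5184 WT and 4769 iKD cells of the 8 clusters remained. No p-value was computed, since cells are not replicates. The genes named were the 10 members, genes of 8 pathway lists (61 genes) and 13 marker lists, and for each member at the level minimum the 3 genes with the most similar pattern (those of Cd14 are not reported here). The members and lists were chosen with earlier results of these data known. Positions are from GENCODE release M21 on GRCm38, and promoter sequence is from RefSeq. The alternatives were another scaling, pseudocount, thinning, filter or choice of cells.

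Counts were simulated for 10172 genes, at the real depths of each genotype in the 6 clusters, to check the calculation. Each of 50 genes changed 1.5-fold upward was called higher, and 0.281% of unchanged genes were past the fold. The counts were drawn with counting error only, at a fixed mean per gene and genotype. This share therefore does not cover differences between cells, clusters, sexes or mice, and is not a rate of false calls in the real data. Scripts ran in Python 3.11.15 (numpy 2.4.6, scipy 1.17.1, pandas 2.3.3, matplotlib 3.10.9).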

Additional observations from a re-analysis of the deposited data

Results flagged for a closer look

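Tlr7 moved in opposite directions between the genotypes in female and in male cells. Over the 6 clusters, female cells had a log2 ratio of iKD over WT of 0.26 and male cells one of -0.25, with counting intervals off 0 in both. The difference between these effects was not tested, because each genotype has 1 library and the cells of 1 sex come from a few mice. Fkbp5, Ddit4 and Tsc22d3, genes of the glucocorticoid response, were also highest in WT male cells, and their part in the result was not tested beyond the cells without an Fkbp5 UMI given above.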

How the results depend on the processing

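No paired analysis was possible because each genotype has 1 library, and for the same reason no replicate could be left out. Under all 14 alternatives to the ratio of iKD over WT, 0 members were past the fold, and the median over the members ran from -0.06 to 0.00. Leaving out the filter on low levels cannot change a ratio, so its values for the 10 members were fixed in advance. Of 140 ratios of single members under these alternatives, those included, 134 stayed within the counting interval of the reported value. The other 6 were those of Tlr7 in female cells (0.26), in male cells (-0.25), as their mean (0.00) and over 8 clusters (0.02), Tlr1 in cells with Ttr not above the median (0.21) and Myd88 in thinned cells (-0.11). The number of all genes past the fold, 301, was 473 in female cells, 678 in male cells and 5 with a pseudocount of 1. The number of members with at least a 1.5-fold range over the 8 clusters was 6 of all 10, Tlr9 included, and 5 with CPM of summed UMIs and with thinning, where Tlr7 fell short. By share of cells it was 5, and 8 when 2 UMIs were asked for. With thinning, 7 of 10 members had the same highest cluster.

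Further alternatives were chosen after seeing the data. The male over female ratio of Tlr7 in WT stayed between 0.40 (without IPC2) and 0.53 (thinned), and that in iKD between -0.21 (without IPC2) and 0.03 (CPM). As iKD over WT, male cells were at -0.37 (-0.52 to -0.22) without IPC2, past the fold that the pooled value does not reach. Also without IPC2, Tlr2 was at -0.02 in WT and -0.05 in iKD as male over female, where the iKD call was lost. Depth limits Tlr9 most, with an interval from -0.42 to 0.42 for its ratio, and the sparse clusters qNSC1 and aNSC.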
